A study of Drosophila melanogaster with 2 samples.

Results

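The Hox genes of Drosophila melanogaster, lab, pb, Dfd, Scr, Antp, Ubx, abd-A and Abd-B, were examined for peaks of a chromatin immunoprecipitation sequencing (ChIP-seq) experiment on the transcription factor Slbo. The 8 genes were taken by name out of 13945 annotated protein-coding genes on the 6 large chromosome arms, and a peak was assigned to a gene when its summit lay in the gene body or within 5 kb of it, a region called the window of that gene here. By this rule 28 of the 8714 peaks on the arms in the thresholded list of both replicates belonged to Hox genes, and no peak fell into the windows of more than 1 of them. The material was whole embryos, 8 to 24 h old, of a transgenic strain named slbo-GFP, whose flies express Slbo fused to eGFP. Slbo is a fly member of the C/EBP family of basic leucine zipper factors. The single group, slbo-GFP embryo ChIP, had 2 biological replicates. Both samples carried the transgene, and a possible control experiment that the labels name was not used here. According to the sample text the precipitation used an antibody to GFP, whereas the antibody field reads slbo. Whole embryos mix all tissues, so the cells in which a site was bound cannot be told apart.

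Hox genes encode homeodomain transcription factors that give body segments their identity along the axis from head to tail. In the fly they lie in separate clusters, the Antennapedia complex (lab, pb, Dfd, Scr and Antp) and the bithorax complex (Ubx, abd-A and Abd-B), and their order on the chromosome follows the order of the segments in which they act. Large regulatory regions in introns and between the genes, long non-coding RNAs and repression by Polycomb group proteins are known to control them. slbo itself is known for its role in the migration of border cells in the ovary.

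Sequences are shown for the strongest peak of each gene and for the single Hox summit with a match to the C/EBP consensus. The results on position and motifs are drawn from all 28 Hox summits, of which these are a part. Each printed sequence is the 101 bases centred on the summit, on the plus strand of chromosome 3R of the dm6 build, in lower case. Capitals mark every match to any of the motifs described further down. The sequences of lab, pb, abd-A and Ubx at 16702558 have such a match, and the other printed ones have none.
lab, downstream of the gene, chr3R:6660095-6660195: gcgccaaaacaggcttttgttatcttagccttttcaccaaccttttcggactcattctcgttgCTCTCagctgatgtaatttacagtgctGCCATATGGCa
pb, intron, chr3R:6709018-6709118: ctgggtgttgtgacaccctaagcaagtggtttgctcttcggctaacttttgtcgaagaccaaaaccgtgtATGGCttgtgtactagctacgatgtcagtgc
Abd-B, intron, chr3R:16970015-16970115: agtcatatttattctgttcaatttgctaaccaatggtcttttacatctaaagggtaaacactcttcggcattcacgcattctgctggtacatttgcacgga
Antp, intron, chr3R:6912425-6912525: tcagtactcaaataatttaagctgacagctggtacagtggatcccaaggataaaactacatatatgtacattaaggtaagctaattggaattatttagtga
Ubx, intron, chr3R:16704392-16704492: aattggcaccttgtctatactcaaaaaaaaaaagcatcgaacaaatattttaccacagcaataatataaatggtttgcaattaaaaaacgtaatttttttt
Dfd, upstream of the start site, chr3R:6791451-6791551: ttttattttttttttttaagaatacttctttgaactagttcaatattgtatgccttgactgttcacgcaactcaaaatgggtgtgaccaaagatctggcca
Scr, downstream of the gene, chr3R:6818691-6818791: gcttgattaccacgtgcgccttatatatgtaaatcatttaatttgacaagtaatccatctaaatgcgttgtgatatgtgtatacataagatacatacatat
abd-A, upstream of the gene, chr3R:16834783-16834883: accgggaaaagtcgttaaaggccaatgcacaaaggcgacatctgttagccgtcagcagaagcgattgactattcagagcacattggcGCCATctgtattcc
Ubx, intron, C/EBP consensus in capitals, chr3R:16702508-16702608: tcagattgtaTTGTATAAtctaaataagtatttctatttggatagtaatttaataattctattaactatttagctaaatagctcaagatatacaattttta

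All 8 Hox genes had at least 1 summit in their windows in the list of both replicates. The same was true of 66.5% of protein-coding genes, and of 83.2% of the 1977 protein-coding genes with a body of 10 kb or more, a class to which all 8 belong. In replicate 1 alone all 8 genes had a summit (63% of protein-coding genes), and in replicate 2 alone 7 did (53.8% of protein-coding genes), abd-A being the exception. The number of summits was 9 at Antp, 5 at Abd-B, 4 each at pb and Ubx, 2 each at lab and Dfd, and 1 each at Scr and abd-A. Called in each replicate alone, Antp had 5 summits in replicate 1 and 4 in replicate 2 (mean 4.5 ± 0.707, SD, n = 2). Abd-B had 4 and 2 (3.0 ± 1.41), Ubx 2 and 3 (2.5 ± 0.707) and lab 3 and 1 (2.0 ± 1.41). For pb, Dfd and Scr both replicates gave 1, and for abd-A they gave 1 and 0. Over the genes together replicate 1 had 18 Hox peaks and replicate 2 had 13.

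The bodies of the 8 genes ran from 10.6 kb (Dfd) to 103 kb (Antp). Per 10 kb of window the density was highest at Dfd (0.971), Abd-B (0.909) and pb (0.904), followed by Antp (0.797), lab (0.736) and Ubx (0.456), and lowest at abd-A (0.304) and Scr (0.271). Over the 417.5 kb of all Hox windows it was 0.671 per 10 kb, against 0.651 over the arms as a whole, 0.618 over chromosome 3R, on which all 8 genes lie, and a median of 0.691 among the protein-coding genes of 10 kb or more. These densities are a description of 1 list and were given no test. That of Dfd counts 2 overlapping calls that match the same replicate peaks, and each replicate alone had 1 peak there. Its first place depends on counting both calls. At Antp the 9 summits were matched or exceeded by 101 protein-coding genes, Antp included.

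**Figure D1:**
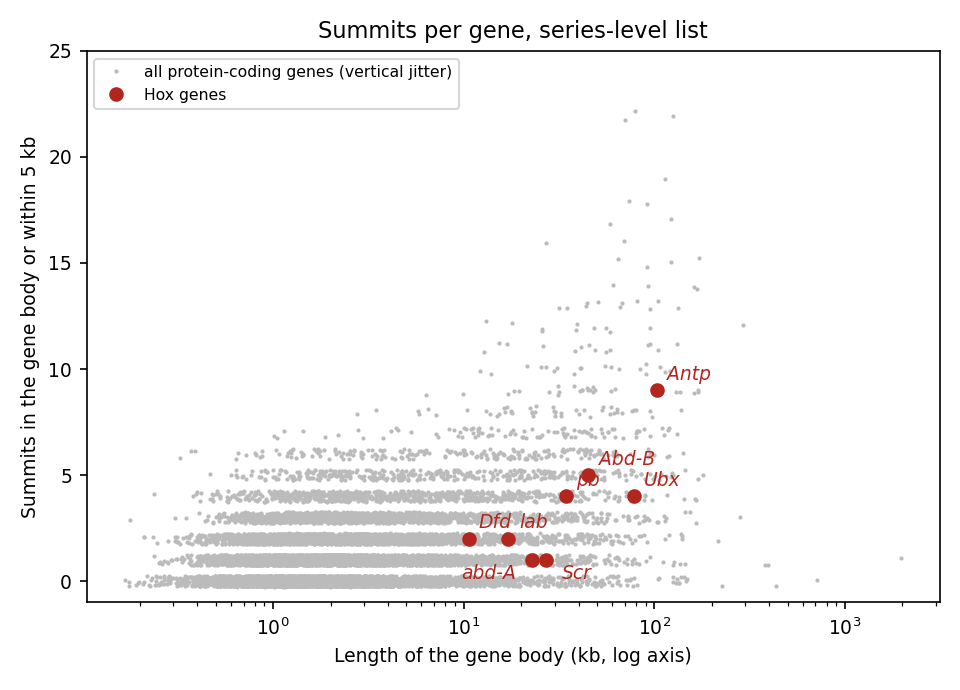
Number of summits in the gene body or within 5 kb (vertical axis) against the length of the gene body in kb (logarithmic horizontal axis) for every protein-coding gene, with the 8 Hox genes in red. Grey points are shifted vertically at random by under 1 count to show overlapping genes, and 1 gene above 25 summits is outside the plot. The Hox genes run from 1 summit (Scr, abd-A) to 9 (Antp) and lie among other genes of their length.

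The Hox peaks were of low to moderate signal. The signal is the peak caller's own value, and it is compared here only within a list. The 28 Hox peaks ran from 12.85 to 262 with a median of 98.8, while all peaks on the arms had a median of 121 and a maximum of 5564. Of the 28 peaks 10 were above the median of all. The strongest, in an intron of Abd-B, ranked 1795th among the 8786 peaks of the whole list.

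Of the 28 peaks 12 (42.9%, 95% Wilson interval 26.5 to 60.9) overlapped a thresholded peak of both replicates, against 53.7% of all peaks on the arms, a value inside that interval. A further 8 overlapped a thresholded peak of 1 replicate (6 of replicate 1, 2 of replicate 2), and 8 overlapped none. The median signals of these classes were 175, 95.9 and 67.0, and over all peaks on the arms they were 209.7, 90.5 and 69.3. The weakest Hox peak, of 12.85 at Dfd, was in the first class. Across the 27 Hox peaks with a counterpart in both replicates' ranked lists, Spearman's rho between the replicates' signals was 0.797. This is a description across peaks, which are not independent, and the neighbouring Dfd peaks share a counterpart. The intervals on shares of peaks reflect counting error alone, as if adjacent peaks were independent.

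**Figure D2:**
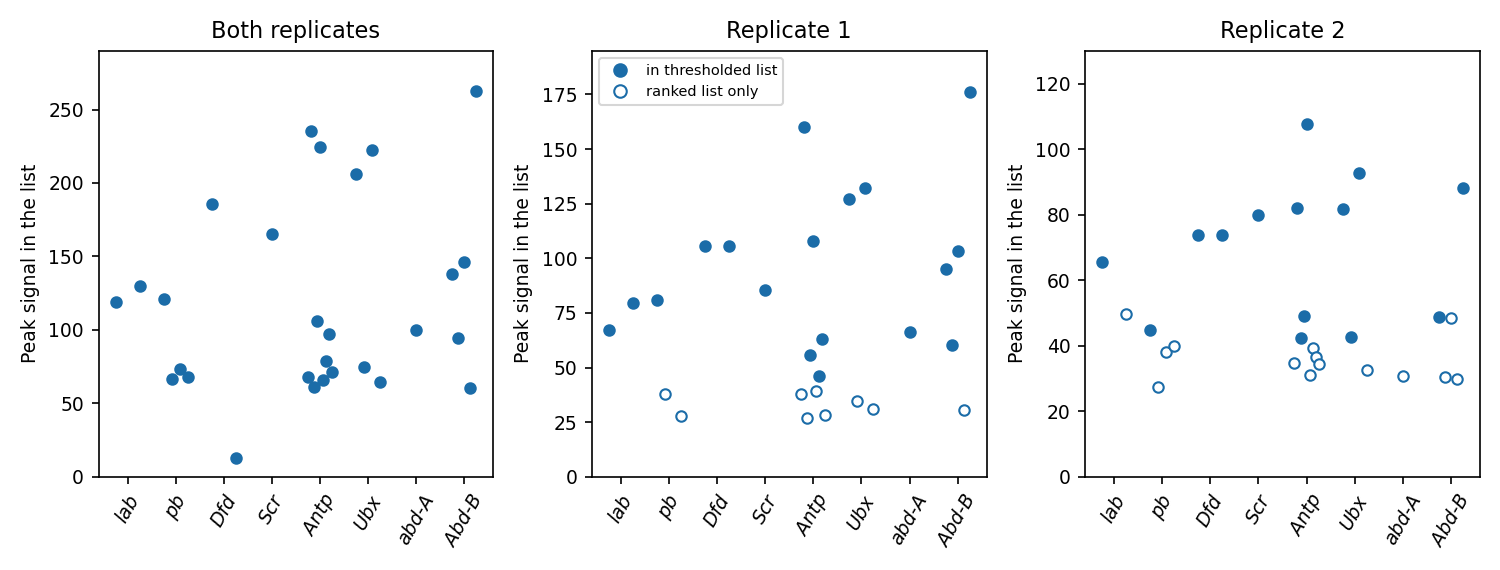
Signal of each Hox peak (vertical axis, the peak caller's value) by gene (horizontal axis) in the list of both replicates and, for the overlapping peak, in the ranked list of each replicate. Filled points overlap a thresholded peak of that list and open points are found below the threshold only. The strongest points, at Abd-B, Antp and Ubx, are filled in both replicates.

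Most Hox peaks lay away from start sites. Of the 28 summits 21 were in the body of the Hox gene, 3 upstream and 4 downstream, and 17 were in its introns. Gene bodies make up 80.8% of the length of the Hox windows, so the count in bodies is near what the windows themselves give. The gene bodies of pb, Antp, Ubx and Abd-B held all 21, and those of lab, Dfd, Scr and abd-A held none. This split follows gene length: the bodies without a summit reach 26.9 kb (Scr), and those with one start at 34.3 kb (pb). The share of all protein-coding genes with a summit in the body is not given. Within 500 bp of an annotated start site of any gene lay 7 of the 28 summits (95% Wilson interval 12.7 to 43.4%), while 46.1% of all summits on the arms did, a share above the upper bound of that interval. Only 4 of these 7 were at a start site of the Hox gene itself, and the other 3 were at the start sites of neighbours, CG1307 and agt beside lab and modSP beside Ubx. The median distance to the nearest start site of any gene was 2681 bp for the Hox summits and 649 bp for all summits. Neither value was counted for peaks around other genes of 10 kb or more. A trait of the Hox genes can therefore not be told apart from one of long genes. By gene, Dfd, Antp and Abd-B had a summit within 500 bp of an own start site, 3 of 8, against 32% of protein-coding genes. Of the genes with a body of 10 kb or more, 43.4% had one in the list of both replicates. In replicate 1 alone Dfd and Antp had one, and in replicate 2 alone Dfd did. The share of all protein-coding genes is not given for either replicate alone. Those counts can therefore not be called low or high.

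The genes are described from the head end of the axis to the tail. lab (labial, FBgn0002522; 3R, 6661427 to 6678590, minus strand) acts in the most anterior segments and in the midgut. Both of its peaks lay downstream of the gene at promoters of its neighbours. That of signal 129.8 (3R, 6659980 to 6660309) was 1282 bp from the end of lab and 45 bp from the start site of agt, which encodes a DNA repair alkyltransferase. In replicate 1 it had a signal of 79.4 and passed the threshold, and in replicate 2 it had 49.8 and did not. That of signal 119 (3R, 6657373 to 6657702) was 96 bp from the start site of CG1307 and passed in both replicates, with 67.3 and 65.4. Inside the gene replicate 1 alone had a thresholded peak of signal 41.4 in an intron (3R, 6672488 to 6672807), which the list of both replicates held only below its threshold, with a score of 687.

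pb (proboscipedia, FBgn0051481; 3R, 6707800 to 6742063, minus strand) specifies mouthparts. Its 4 peaks were all in the gene body. The strongest, of signal 121 (3R, 6708903 to 6709232), was in an intron 33.0 kb downstream of the only start site, and it passed in replicate 1 (80.7) and in replicate 2 (44.8). The other 3 had signals of 73.2 in a coding exon, 67.7 in the 5′ UTR 530 bp from the start site, and 66.3 in an intron, and they passed the threshold in neither replicate alone. The coding exon peak had no counterpart in the ranked list of replicate 1.

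Dfd (Deformed, FBgn0000439; 3R, 6791836 to 6802428, plus strand) specifies the mandibular and maxillary segments of the head. It was the Hox gene with the clearest start-site peak. The peak of signal 186 (3R, 6791336 to 6791665) had its summit 335 bp upstream of the single start site and passed in replicate 1 with 106 and in replicate 2 with 73.9. A neighbouring call of signal 12.85 (3R, 6791540 to 6791869), 131 bp upstream, overlapped it and matched the same replicate peaks. Counted as a single region, they make 27 separate Hox regions in place of 28 peaks.

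Scr (Sex combs reduced, FBgn0003339; 3R, 6823120 to 6849981, minus strand) acts in the labial segment and the prothorax. Its only peak, of signal 165 (3R, 6818576 to 6818905), passed in both replicates, with 85.7 and 79.96. The summit lay 4379 bp beyond the 3′ end of Scr, between genes, 1153 bp from the start site of a lysine tRNA gene. The gene body of 26.9 kb had no thresholded peak. The strongest ranked peak below the threshold there, of signal 59.8 in a coding exon (3R, 6825007 to 6825336), had a score of 810, just under the 830 of the thresholded lists.

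Antp (Antennapedia, FBgn0260642; 3R, 6896253 to 6999228, minus strand) specifies thoracic segments and has 3 annotated start sites. Its 9 peaks, all in the gene body, lay between 54.1 and 90.9 kb downstream of the most upstream start site, so that the first 54.1 kb of the gene held none. The annotation places the uncharacterised coding gene CG46458 over the same stretch. The strongest had a signal of 236 (3R, 6912390 to 6912588) and passed with 160.0 in replicate 1 and 82.1 in replicate 2. The next had 224 (3R, 6920020 to 6920349) and passed with 108 in both replicates. A peak of 106 (3R, 6914398 to 6914727) also passed in both. A peak of 78.9 (3R, 6932905 to 6933234), 230 bp upstream of the most downstream start site, passed in replicate 1 with 46.0 and not in replicate 2, where it had 39.3. Peaks of 97.2 and 61.45 passed in replicate 1 alone and replicate 2 alone, and the remaining 3, of 66.3 to 71.0, in neither.

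Ubx (Ultrabithorax, FBgn0003944; 3R, 16656623 to 16734426, minus strand) specifies the third thoracic and first abdominal segments. Its strongest peak, of signal 222 (3R, 16704355 to 16704490), lay in an intron 30.0 kb downstream of the start site and passed in both replicates, with 132 and 92.7. A peak of 206 (3R, 16655711 to 16656040) also passed in both, with 127 and 81.6, but its summit was 747 bp beyond the 3′ end of Ubx and 214 bp from the start site of modSP, which encodes a serine protease of the Toll pathway. Intron peaks of 74.5 and 64.45 passed in replicate 2 alone and in neither. The start site of Ubx had no thresholded peak. A ranked peak of signal 66.8 lay 62 bp from it (3R, 16734323 to 16734652), the strongest below the threshold in the Ubx window, with a score of 321.

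abd-A (abdominal A, FBgn0000014; 3R, 16807214 to 16830049, minus strand) acts in the middle abdominal segments. It had 1 peak, of signal 100.3 (3R, 16834668 to 16834997), 4784 bp upstream of its nearest start site and close to the limit of the window. The summit was in an intron of MSAmiP and of the long non-coding RNA gene lncRNA:iab8. It passed in replicate 1 with 66.1, while in replicate 2 the signal was 30.7 with a score of 47. At a distance of 2 kb abd-A, lab and Scr would lose part or all of their peaks.

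Abd-B (Abdominal B, FBgn0000015; 3R, 16927212 to 16972236, minus strand) specifies the posterior abdomen and the genital segments and has 6 annotated start sites. All 5 of its peaks were in the gene body. The strongest Hox peak, of signal 262 (3R, 16969984 to 16970150), was in an intron 1491 bp from the nearest start site and passed with 176 in replicate 1 and 88.3 in replicate 2. A peak of 138 (3R, 16948712 to 16949041) passed in both, with 95.2 and 48.9. Peaks of 146 (3R, 16958249 to 16958578) and 94.5 (3R, 16957784 to 16958113), both in introns, passed in replicate 1 alone. The weakest, of 60.7 (3R, 16963806 to 16964135), was in the 5′ UTR 330 bp upstream of a start site and passed in neither replicate.

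**Figure D3:**
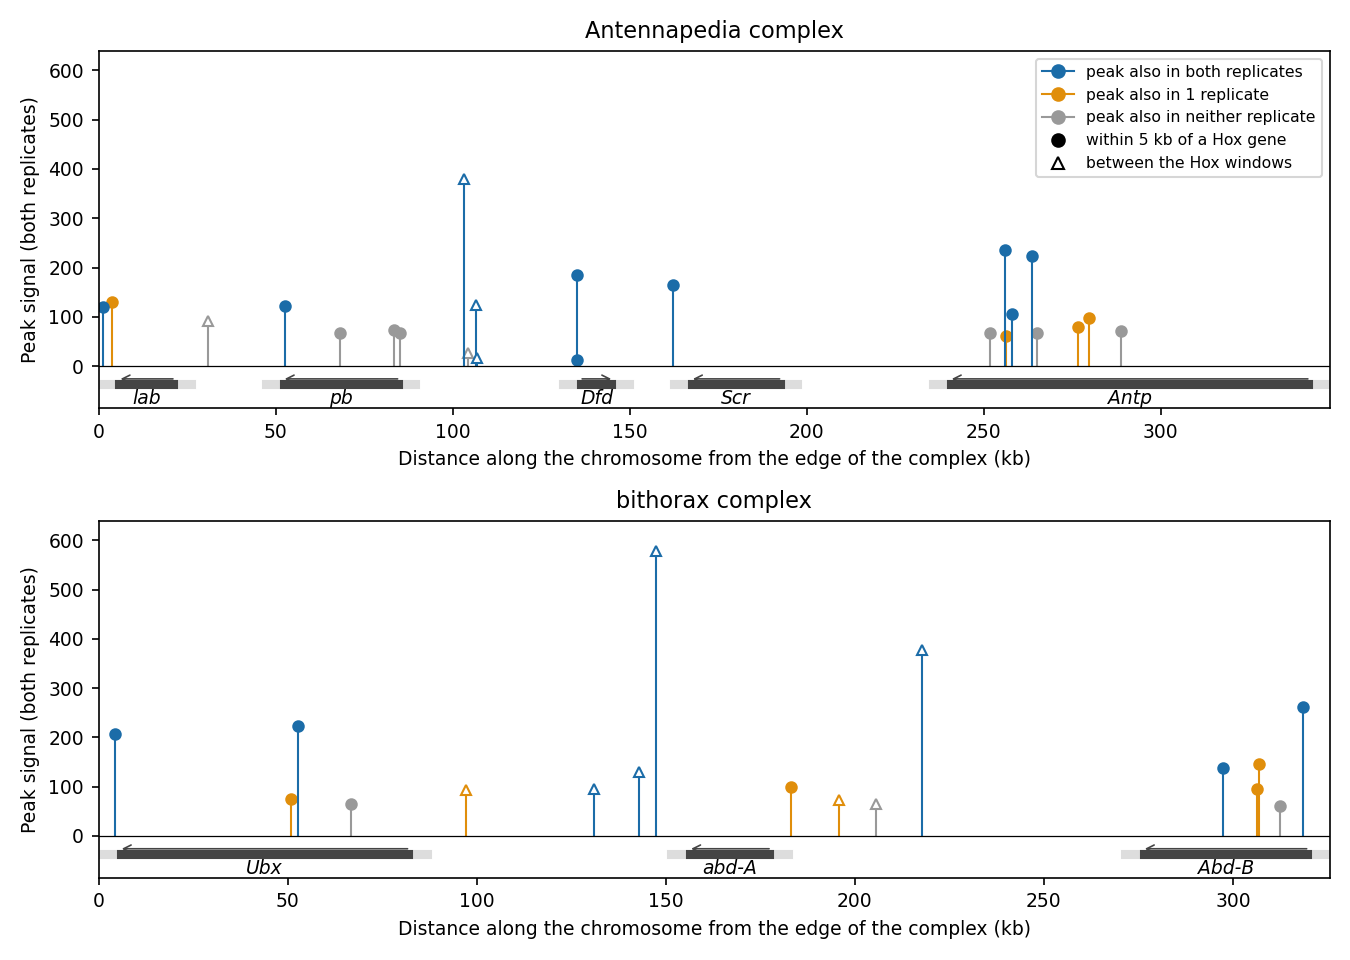
Peaks of both Hox complexes, as distance in kb from the edge of the complex (horizontal axis) against signal in the list of both replicates (vertical axis). Dark bars are Hox gene bodies with an arrow in the direction of transcription, pale ends the 5 kb around them, circles peaks assigned to a Hox gene, triangles peaks between the windows, and colours the number of replicates whose thresholded list has the peak. The tallest peaks of both complexes, 379 and 579, are triangles.

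Below the threshold the windows held more. The ranked list of both replicates had 343 peaks in the Hox windows, the 28 thresholded ones included. This was 8.22 per 10 kb against 9.42 over the arms. None of those outside the thresholded list had a score of 830 or more. Of the 343 Ubx had most with 96, then Antp with 86, Abd-B with 42, abd-A with 40, Scr with 31, lab with 27, pb with 15 and Dfd with 6. The order differed from that of thresholded peaks, in which abd-A and Scr were last. Without the thresholded peaks Ubx had 92, Antp 77, abd-A 39 and Abd-B 37. Per 10 kb of window the 343 were densest at abd-A (12.2) and Ubx (10.9) and sparsest at Dfd (2.91). The median signal of the peaks below the threshold lay between 14.4 (Dfd) and 29.2 (pb), and all ranked peaks had a median of 24.9.

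The motifs at Hox summits were counted within 50 bp on both strands. The C/EBP consensus TTRYRYAA, in which R stands for a purine and Y for a pyrimidine, was at 1 of 28 Hox summits (3.57%, 95% Wilson interval 0.633 to 17.7) and at 5.43% of all summits on the arms. The match was the intron peak of Ubx at 16702558 printed above, which passed in replicate 2 alone. The DRE core TATCGATA was at 0 of 28 and at 2.4% of all summits. A count of 0 allows a share of up to 10.7% when the limit is set at 3 counts, and the Wilson interval reaches 12.1%. GAGAG, the core of GAGA factor sites, was at 4 of 28 (10.4% of all summits). GCCAT, the core of sites of the Polycomb recruiter Pho, was at 6 of 28 (16.6% of all), among them the abd-A peak. The homeodomain core TAATTA was at 2 of 28 (7.9% of all), at Abd-B and Ubx. TGATNNAT, the type of site bound by the cofactor Exd with Hox proteins, was at 1 of 28 (7.02% of all), at Antp. Flanks 400 to 500 bp from the Hox summits, on the side of higher coordinates only, had 0, 0, 5, 7, 4 and 1 matches in the same order. For each motif the share at all summits lay inside the Wilson interval of the Hox share, so no difference was detectable with 28 summits in this window of 50 bp to each side. With 100 bp to each side GAGAG was at 13 of 28 Hox summits against 22.7% of all, and that difference was not tested. A match is a run of letters and was not shown to be bound.

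**Figure D4:**
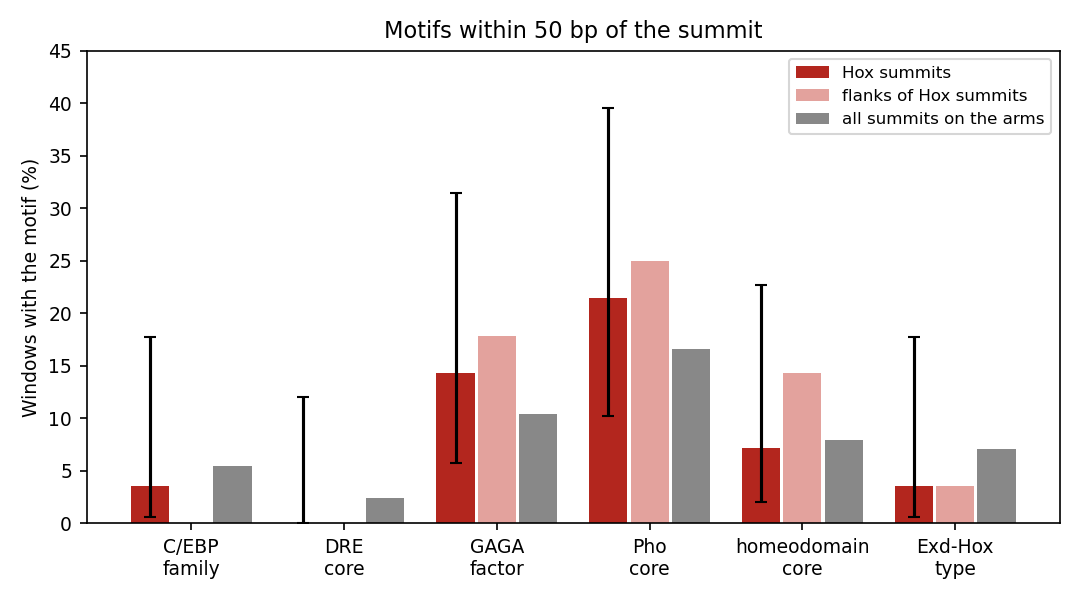
Share of windows with each motif in percent (vertical axis) for the 28 Hox summits with 95% Wilson intervals, for their flanks and for all summits on the arms, by motif (horizontal axis). The flanks are on the side of higher coordinates only. Every grey bar falls within the interval of the Hox bar beside it.

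Genes that work with the Hox genes were counted by the same rule, from lists named by textbook role, beside the 66.5% of protein-coding genes with a summit. Of 6 Hox cofactors 4 had a summit: hth, which brings Exd into the nucleus, had 11 (strongest signal 464), tio 2 (162), and disco-r (85.6) and the trunk gene tsh (59.35) 1 each, while exd and disco had 0. Of 10 textbook Hox targets 7 had one, led by kn (546), ct (351), dpp (219) and fkh (135), and salm, ems and rpr had none. Of the 12 matched segmentation regulators, many of which set the early domains of the Hox genes, only cad had one (428). hb, Kr, kni, gt, tll, eve, run, en, odd, opa and prd had none. The bodies of these 11 genes are from 1.48 to 6.84 kb long, except that of opa with 17.2 kb. The gene h, which the annotation names hry and which was added afterwards, had 1, making 2 of 13. Of the other homeobox genes of the Antennapedia complex bcd had 4 summits (strongest 379) and zen2 had 2, which are also peaks of pb. The bcd summits were all outside its body. They include a pair of overlapping calls 303 and 104 bp upstream of the start site of Ama, which match the same replicate peaks. zen and ftz had 0 (ftz had 1 in replicate 1 alone). Of 11 genes of other homeobox clusters 4 had one (tin 477, inv 79.0, caup 73.4 and lbl 68.0). These lists are short and were given no test. Of the cofactors and targets with more than 1 summit, hth (132 kb), ct (70.4 kb), kn (34.4 kb) and dpp (31.5 kb) have long bodies. Those of tio (6.53 kb) and fkh (4.29 kb) are short. Their counts were not set against gene length. The rule also counts summits outside the gene body. Of the 5 summits of kn 1 lay in its body, of the 4 of dpp 3 did, and of the 5 of ct all did. Those of cad, tin and lbl were all outside. Called in replicate 1 alone, 4 cofactors, 7 targets, 1 segmentation regulator, 2 Antennapedia complex genes and 2 genes of other clusters had a summit. Replicate 2 alone gave 2, 5, 1, 1 and 1. Of all protein-coding genes 63% had a summit in replicate 1 alone and 53.8% in replicate 2 alone.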

How the data were processed

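The deposited files were 8 peak lists on dm6, thresholded and ranked, of both replicates together and of each replicate, per the file descriptions. The sources used here do not name the aligner or the peak caller. The signal column was deposited by the authors as the peak caller's value, with no stated scaling for depth. The deposited score is at least 830 in thresholded lists, whose names tie it to the irreproducible discovery rate. Of the ranked lists of both replicates, the one holding every thresholded peak was used. No read counts were given, so depth is unknown.

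Summits were the peak start plus the summit offset. Gene models were from Ensembl release 115 and sequence from RefSeq, both of the same build. Transposable elements were left out, and peaks on the 6 arms were used. Overlap with a replicate meant at least 1 bp. Python 3.11.15, pandas 2.3.3 and SciPy 1.17.1 were used, and window counts and motif searches were tested on simulated data. No test between groups was possible with 1 group of 2 replicates. All Hox genes are named; of each companion list up to 4 genes with a summit are named by signal, and genes without one. The members and lists were chosen with earlier results of these data known.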

Additional observations from a re-analysis of the deposited data

How the results depend on the processing

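The 28 Hox summits became 24 in the conservative list, 25 within 2 kb, 31 within 10 kb and 21 in gene bodies, stayed 28 with ranked peaks of a score of 830 or more, with any overlap and with RefSeq gene bodies, and became 27 with overlapping peaks merged. They fell to 10 among peaks above the list's median signal and to between 13 and 18 without 1 replicate. The number of genes with a summit fell from 8 to 4 in gene bodies and was 6 to 8 otherwise. The share of all protein-coding genes is not given for gene bodies, for other distances or above the median signal. The count of 4 can therefore not be called low or high. The summits matched in both replicates, 12, were 7 in gene bodies and 8 to 14 under the other changes of list, distance and overlap. With 1 replicate left out, 18 overlapped replicate 1 and 14 replicate 2. The genes with a start-site summit, 3, were 1 above the median signal, 1 to 2 without 1 replicate and 2 to 4 otherwise. No share of all protein-coding genes is given beside these changed counts. RefSeq bodies, merged peaks and the gene hry were alternatives chosen after seeing the data.

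Motif counts are given with the share of all summits in the same window. With 25 bp to each side TTRYRYAA was at 0 of 28 Hox summits (2.41% of all), TAATTA at 0 (3.87%), GAGAG at 2 (4.85%) and GCCAT at 2 (8.65%). With 100 bp TTRYRYAA was at 5 (10.6%), TAATTA at 6 (14.5%), GAGAG at 13 (22.7%), GCCAT at 12 (29.7%), TATCGATA at 1 (4.17%) and TGATNNAT at 4 (12.9%). The lack of a detectable difference was stated for 50 bp to each side only. With 100 bp the largest gap was that of GAGAG, and no interval was computed for that window. No paired analysis was possible because there was 1 group. The depth is unknown. Of the 28 Hox peaks 27 had a ranked counterpart in replicate 1 and 28 in replicate 2, so a peak that missed a replicate's threshold was not absent from that list, except the coding exon peak of pb in replicate 1. The ranked lists of the replicates hold 108544 and 115153 peaks on the arms. The like share over all thresholded peaks was not counted, so these counts say nothing particular to the Hox peaks.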

Other observations

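The strongest peaks of both Hox complexes lay between the Hox windows. Of the 40 thresholded peaks of both complexes 12 were outside the windows, and 7 of these overlapped a thresholded peak of both replicates, beside 53.7% of all peaks on the arms. The 7 include a pair of overlapping calls at Ama that match the same replicate peaks. In the bithorax complex a peak of signal 579 (3R, 16798792 to 16799020), rank 477 in the list, lay between genes, 8310 bp beyond the 3′ end of abd-A and 1696 bp from the start site of lncRNA:CR45750. It passed with 349 in replicate 1 and 228 in replicate 2. With 10 kb around the gene in place of 5 kb it would count as a peak of abd-A. A peak of 377.5 (3R, 16869283 to 16869466) lay in an intron of lncRNA:iab8, 39337 bp from abd-A, and passed with 253 and 126. In the Antennapedia complex a peak of 379 (3R, 6759579 to 6759779) lay 220 bp upstream of the start site of bcd, the maternal gradient gene, and passed with 213 and 165.

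The annotation has 29 non-coding entries in the Antennapedia complex and 15 in the bithorax complex. Of these, lncRNA:iab8 held 4 summits in its body, lncRNA:CR45593 held 2 and lncRNA:bxd held 1. The microRNA genes mir-10 and mir-993 had no thresholded summit within 5 kb, and mir-iab-4 and mir-iab-8, which overlap on opposite strands, had 1, of signal 64.3, that passed in neither replicate.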
